A study of Mus musculus with 16 samples.

Results

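Oxidative phosphorylation genes were examined in RNA-seq of the mouse hypothalamus. They were taken by name as the protein-coding nuclear genes whose symbols begin with Nduf, Uqcr, Atp5 or Cox and a digit (Cox14 was left out), together with Sdha, Sdhb, Sdhc, Sdhd and Cycs. The names matched 103 genes, and 98 of them exceeded 1 CPM (a read count scaled to the same library total) in 1 or more of the 16 libraries, out of 15808 genes that did. The 98 genes comprised 46 named for complex I, 4 of complex II, 8 of complex III, 22 of complex IV, 17 of complex V and cytochrome c. The 5 names below the filter were Cox4i2, Cox7b2, Cox8b, Cox8c and a second annotation of Atp5o. Ndufa4 and its relative Ndufa4l2 are counted with complex I here because of their names, although the Ndufa4 protein is now placed in complex IV.

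The libraries came from male C57BL/6 mice aged 3 months, with 4 mice in each of 4 groups. Wild-type (WT) mice and ASIC1a-/- mice, which lack the acid-sensing ion channel 1a throughout the body, were killed at zeitgeber time (ZT) 1 or ZT13 in a cycle of 12 h of light, that is, early in the light or early in the dark phase. No group received a drug or other treatment. In tissue pieces of this kind, fewer cells of a type and less RNA per cell cannot be told apart.

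Oxidative phosphorylation passes electrons from NADH and succinate through complexes I and II to coenzyme Q, then through complex III and cytochrome c to complex IV, which reduces oxygen. Complexes I, III and IV pump protons across the inner mitochondrial membrane, and complex V (ATP synthase) uses the gradient to make ATP. Nuclear genes encode most subunits and every assembly factor, whereas mitochondrial DNA encodes a few hydrophobic core subunits of complexes I, III, IV and V. Neurons depend on this pathway for most of their ATP.

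Each library held 34888507 to 42326231 assigned reads. Of these, 0.878 to 0.966% fell on the 98 genes and 3.80 to 4.64% on mitochondrial transcripts. All 11 hypothalamic marker genes examined were measured, with summed levels of 1199 to 1616 CPM. Asic1 lay at 97.0 to 106 CPM in WT libraries and at 64.8 to 71.8 CPM in ASIC1a-/- libraries, so the groups did not overlap and the reads fell but were not lost in ASIC1a-/-. These reads are counted over the whole Asic1 gene and not over the Asic1a form alone. By RT-qPCR the paper reports that Asic1a mRNA was absent in ASIC1a-/- mice. The 2 libraries ASIC1a-/- ZT1 replicate 4 and ASIC1a-/- ZT13 replicate 2 were high in markers of the meninges, with summed levels of 366 and 181 CPM.

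Complex V had the highest median transcript level among the complexes as counted here, with assembly factors included. The medians of complexes I and IV take in nearly all of the assembly factors, which had lower levels. Medians of the subunits alone were not compared between complexes. Levels of different genes are given in TPM (transcript abundance scaled for length and library total) as the mean ± SD of 16 libraries. The median member stood at 209 TPM, against 18.0 TPM for all genes tested. Atp5b, the catalytic beta subunit of ATP synthase, was the most abundant member at 1416 ± 44.0 TPM. Atp5a1, the alpha subunit that alternates with it in the enzyme head, followed within the complex at 794 ± 12.2 TPM. The median over the 17 genes of complex V was 318 TPM. Atp5g2, one of 3 genes for the proton-carrying c subunit, was the lowest of complex V at 7.12 ± 1.64 TPM.

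Complex I, the NADH dehydrogenase, had a median of 165 TPM over its 46 genes. Its 7 nuclear core subunits, which carry the flavin, the iron-sulphur clusters and the quinone site, had a median of 191 TPM, and each of them exceeded 100 TPM. Accessory subunits surround the core. The 31 genes classed as accessory by name spanned 3.965 to 634 TPM, with Ndufa4l2 lowest and Ndufa4 highest. Apart from these genes, which are counted here only by name, they ran from Ndufb4 at 39.0 TPM to Ndufb8 at 466 TPM. In complex II, which oxidises succinate, Sdha, the flavoprotein, stood at 438 ± 8.38 TPM, above its partners Sdhb (193 ± 6.56), Sdhd (140 ± 3.65) and Sdhc (108 ± 6.06 TPM). In complex III, the levels ran from 126 ± 3.68 TPM for Uqcrfs1, the Rieske iron-sulphur protein, to 496 ± 18.8 TPM for Uqcrh, the hinge protein. Complex IV, cytochrome c oxidase, held both Cox4i1 at 1113 ± 43.1 TPM and Cox7a1 at 7.18 ± 1.36 TPM. Cycs, the somatic cytochrome c, was at 58.4 ± 1.86 TPM.

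Assembly factors were expressed at lower levels than the subunits they help to build in. The 17 assembly factors had a median of 28.6 TPM, and 1 of them, the copper chaperone Cox17, exceeded 100 TPM. By contrast, 74 of the 81 subunits, cytochrome c included, exceeded 100 TPM, with a median of 244 TPM. The 13 subunits encoded by mitochondrial DNA had a median of 4933 TPM.

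**Figure D1:**
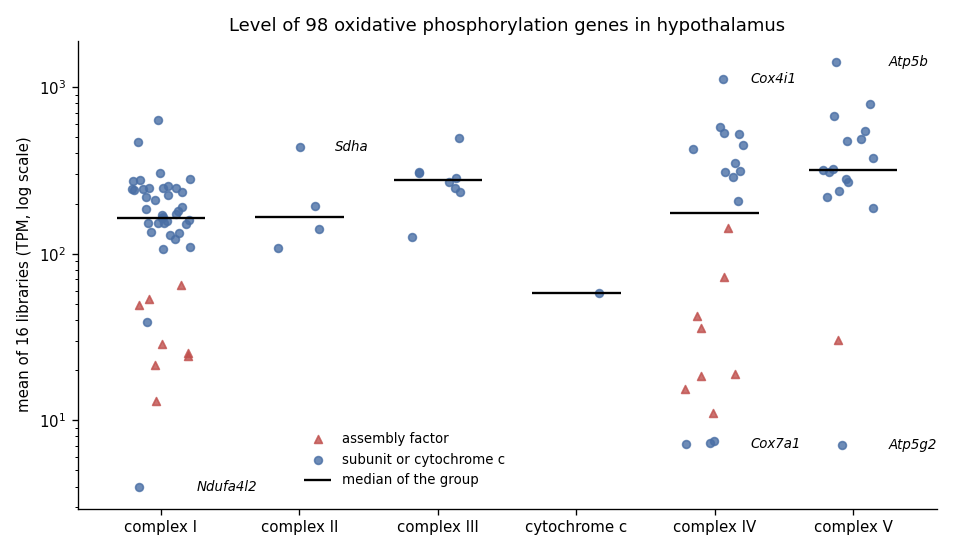
Mean level of each of the 98 genes over 16 libraries in TPM (log axis), by complex, with assembly factors as triangles, other members as circles and group medians as lines. Atp5b (1416 TPM) and Cox4i1 (1113 TPM) are at the top, and all assembly factors except Cox17 lie under 100 TPM.

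Where a subunit has alternative forms, 1 ubiquitous form supplied nearly all transcripts in 6 of 8 families. Cox4i1 made up 99.8% ± 0.0447 (SD, n = 16 libraries) of the TPM of Cox4i1 and Cox4i2, the form known from lung and from hypoxia. Cox6a1 made up 98.3% ± 0.351 against its heart and muscle form Cox6a2. Cox6b1 made up 98.6% ± 0.214 against Cox6b2, a form known from testis. Cox7b and Cox8a supplied 99.9% ± 0.0729 and 99.9% ± 0.05 of their families. Ndufa4 supplied 99.4% ± 0.185 of the sum with its hypoxia-inducible relative Ndufa4l2.

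The remaining families were shared between genes. Cox7a2 and Cox7a2l, a relative that joins complexes III and IV into supercomplexes, held 49.1% ± 0.834 and 49.7% ± 0.839, while Cox7a1, the muscle form, held 1.14% ± 0.205. Of the c subunit of ATP synthase, Atp5g3 supplied 65.3% ± 0.833, Atp5g1 33.8% ± 0.725 and Atp5g2 0.854% ± 0.195. These 3 genes encode the same mature protein behind different import sequences. Cox8c had no count in any library, Cox8b had 0 to 4 counts and Cox7b2 had 0 to 7. Cox7a1 was the member nearest above the filter, with a highest level of 1.21 CPM and 6 libraries over 1 CPM, and Cox4i2 the nearest below it, with a highest level of 0.971 CPM.

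**Figure D2:**
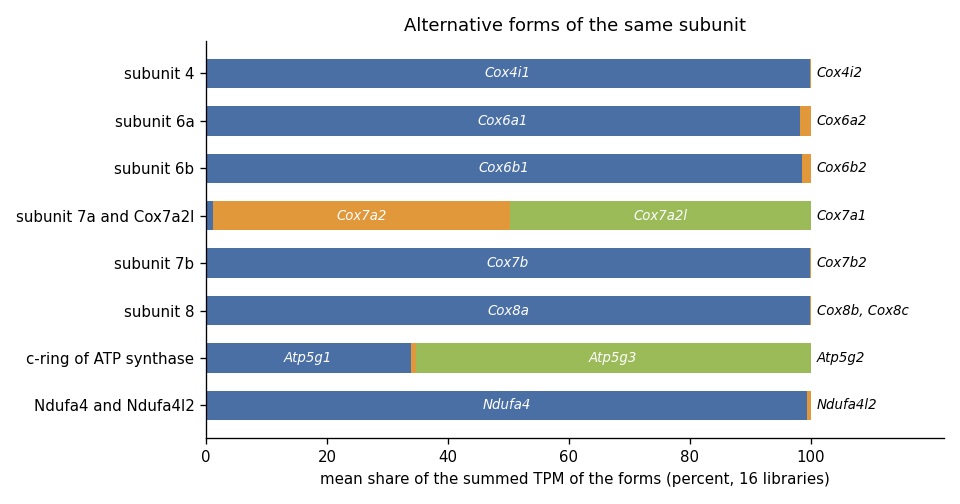
Mean share, in percent over 16 libraries, of each gene in the summed TPM of its family of alternative forms. Single genes fill at least 98.3% of 6 families, and the other families divide between Cox7a2 and Cox7a2l and between Atp5g3 and Atp5g1.

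Most members varied little between mice. The coefficient of variation within groups had a median of 4.8% over the 98 genes and was under 5% for 57 of them. Sdha varied least, by 2.53%. The 7 genes over 10% were Ndufaf8, Ndufaf6, Cox6a2, Ndufa4l2, Cox7a1, Cox6b2 and Atp5g2, which is the highest at 19.2%, and each of them was at or below 21.5 TPM.

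Time of day was compared first, between ZT13 and ZT1. Averaged over both genotypes, 7 members fell and 1 rose at ZT13 (edgeR quasi-likelihood F test, Benjamini-Hochberg adjusted p under 0.05 over all 15808 genes). The count was 4 without ASIC1a-/- ZT1 replicate 2, WT ZT13 replicate 1 or 4, or ASIC1a-/- ZT13 replicate 3, and 5 without WT ZT1 replicate 1 or 4 or ASIC1a-/- ZT13 replicate 2. It was 12 without WT ZT1 replicate 3, and 6 without both libraries high in meningeal markers. The 8 genes are 8.16% of the members, whereas 26.4% of all genes tested passed in the same comparison. In the separate directions 12.1% of all genes fell and 14.3% rose. The members that fell were Ndufa4l2, Ndufb2, Ndufb10 and Ndufaf5, counted with complex I, Uqcrfs1 of complex III, and Atp5j2 and Atp5e of complex V. The member that rose was Cox6a2. In no member were all 8 libraries of 1 time apart from all 8 of the other, whereas 5.95% of all genes were, 3.5% higher and 2.45% lower. Apart from Ndufa4l2 and Cox6a2, the differences were at most 0.13 on the log2 scale.

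Ndufa4l2 (ENSMUSG00000040280, chr10:127514967-127517154), which replaces Ndufa4 in hypoxic cells and is known from pericytes, changed most. Its normalised counts in WT libraries were 1.48, 1.29, 1.46 and 1.37 CPM at ZT1 and 0.657, 1.16, 1.10 and 0.805 CPM at ZT13. In ASIC1a-/- libraries they were 1.54, 1.45, 1.22 and 1.45 CPM at ZT1 and 0.871, 1.27, 0.988 and 0.970 CPM at ZT13. The WT groups did not overlap, and in ASIC1a-/- the highest ZT13 library lay above the lowest ZT1 library. The log2 fold change was -0.53 (SE 0.130, adjusted p = 0.00577, edgeR) averaged over genotypes. The gene rests on 23 to 55 reads per library. On the log2(TPM + 1) scale its change was -0.27 and did not pass (limma, adjusted p = 0.236), and its estimated effective length ranged from 387 to 788 bases between libraries. It shares 32 exon bases with Shmt2 on the opposite strand, which differed by 0.01 (adjusted p = 0.895).

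Markers of mural cells, the pericytes and smooth muscle of vessels, moved in the same comparison. Of 7 such markers, 4 fell (Kcnj8 by 0.53, Vtn by 0.52, Pdgfrb by 0.24 and Abcc9 by 0.18 on the log2 scale) and Notch3 rose by 0.22 (edgeR, adjusted p from 0.000241 to 0.0193). Acta2 (-0.24) and Rgs5 (-0.05) did not pass. The summed level of the 7 markers was 163 to 186 CPM in WT ZT1, 165 to 241 CPM in ASIC1a-/- ZT1, 146 to 157 CPM in WT ZT13 and 154 to 194 CPM in ASIC1a-/- ZT13, and none was at 0 in all libraries. Their part in the result for Ndufa4l2 was not tested.

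Ndufb2 and Ndufb10 encode accessory subunits of the membrane arm of complex I. Ndufb10 (ENSMUSG00000040048, chr17:24722060-24724478) had 89.2, 84.6, 81.0 and 88.0 CPM in WT ZT1 and 79.3, 85.7, 79.2 and 79.0 CPM in WT ZT13. In ASIC1a-/- it had 86.2, 91.2, 84.4 and 86.2 CPM at ZT1 and 79.3, 78.0, 80.7 and 83.5 CPM at ZT13. Every ASIC1a-/- library at ZT13 lay below every one at ZT1, whereas WT ZT13 replicate 2 overlapped the ZT1 range. Its log2 fold change of -0.10 (SE 0.0262, adjusted p = 0.00901) passed under each of the 26 alternatives tried.

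Ndufb2 (ENSMUSG00000002416, chr6:39592574-39603382) had 58.5, 57.5, 51.1 and 57.9 CPM in WT ZT1 and 48.7, 50.5, 51.1 and 50.7 CPM in WT ZT13. In ASIC1a-/- it had 52.8, 60.9, 54.3 and 52.5 CPM at ZT1 and 49.7, 50.6, 50.2 and 54.2 CPM at ZT13. WT ZT1 replicate 3 was the low library of its group and met the ZT13 range, and ASIC1a-/- ZT13 replicate 4 reached into the ZT1 range. The change in counts was -0.13 (SE 0.0350, adjusted p = 0.00837). On the log2(TPM + 1) scale it was -0.05 and did not pass (limma, adjusted p = 0.648), and the estimated effective length averaged 866 and 854 bases in the ZT1 groups against 818 and 822 bases in the ZT13 groups. Ndufb2 shares 146 of its 5628 annotated exon bases with Braf on the opposite strand, which rose by 0.09 (adjusted p = 0.000943). The strand setting of the libraries is not given in the sources used here, so reads over shared bases cannot be told apart.

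Ndufaf5, which modifies a core subunit of complex I during assembly, lay outside the rule for named genes and was chosen after its values were seen. It had 27.4 to 31.2 CPM in WT ZT1, 25.2 to 29.3 CPM in WT ZT13, 27.3 to 34 CPM in ASIC1a-/- ZT1 and 25.2 to 28.6 CPM in ASIC1a-/- ZT13. The groups overlapped in both genotypes, and the change was -0.13 (SE 0.0472, adjusted p = 0.0441). It was lost in 13 of 26 alternatives, among them log2(TPM + 1) (limma, adjusted p = 0.0813) and the fit without both libraries high in meningeal markers (adjusted p = 0.0695).

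Uqcrfs1 (ENSMUSG00000038462, chr13:30540308-30545362) encodes the Rieske protein, which carries electrons within complex III. It had 81.2, 82.5, 75.1 and 81.4 CPM in WT ZT1 and 77.8, 77.5, 77.2 and 74.9 CPM in WT ZT13. In ASIC1a-/- it had 80.6, 87.1, 79.7 and 82.1 CPM at ZT1 and 78.4, 78.6, 76.4 and 79.6 CPM at ZT13. The ASIC1a-/- groups were separate by a narrow gap, and the WT groups overlapped through replicate 3 at ZT1. Its change of -0.07 (SE 0.0237, adjusted p = 0.0465) was the smallest that passed, and 18 of 26 alternatives lost it.

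Cox6a2 (ENSMUSG00000030785, chr7:128205435-128206387), the heart and muscle form of its subunit, was the member that rose. It had 1.87, 1.97, 2.19 and 1.74 CPM in WT ZT1 and 2.60, 2.75, 1.76 and 2.67 CPM in WT ZT13. In ASIC1a-/- it had 1.98, 1.45, 1.81 and 1.65 CPM at ZT1 and 1.96, 2.26, 2.26 and 2.11 CPM at ZT13. At ZT13, 3 WT libraries lay above all WT libraries of ZT1 and replicate 3 lay among them, and in ASIC1a-/- only replicate 1 of ZT13 reached into the ZT1 range. The change was 0.32 (SE 0.105, adjusted p = 0.0294), and 12 of 26 alternatives lost it, among them no filter on low counts (adjusted p = 0.0589) and the fit without both libraries high in meningeal markers (adjusted p = 0.0794). The gene rests on 52 to 97 reads per library and shares 70 of 680 exon bases with Itgad on the opposite strand, which had a mean of 10.7 reads per library. Of 7 striated muscle markers listed, 3 were measured, with a summed level of 4.42 to 5.95 CPM over the libraries, and none of the 3 passed the test (Myh4 -0.38, Actn3 -0.10 and Acta1 0.04).

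Atp5j2 (ENSMUSG00000038690, chr5:145183698-145192062) encodes the f subunit of the membrane part of ATP synthase. It had 74.8, 72.3, 69.0 and 71.3 CPM in WT ZT1 and 67.9, 72.8, 64.5 and 63.9 CPM in WT ZT13. In ASIC1a-/- it had 74.7, 77.4, 70.7 and 70.8 CPM at ZT1 and 67.6, 65.2, 68.8 and 71.6 CPM at ZT13. One ZT13 library of each genotype, WT replicate 2 and ASIC1a-/- replicate 4, overlapped the ZT1 range, and the change was -0.10 (SE 0.0308, adjusted p = 0.0227).

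Atp5e (ENSMUSG00000016252, chr2:174461072-174464105) encodes the epsilon subunit of the rotating central stalk. It had 30.7, 27.8, 26.2 and 30.6 CPM in WT ZT1 and 26, 30.3, 26.4 and 24.4 CPM in WT ZT13. In ASIC1a-/- it had 28.4, 30.1, 28.6 and 29.3 CPM at ZT1 and 25.4, 26.9, 25.7 and 27.8 CPM at ZT13. The ASIC1a-/- groups did not overlap and the WT groups did. The change was -0.12 (SE 0.0422, adjusted p = 0.0367), and 13 of 26 alternatives lost it, among them log2(TPM + 1) (limma, adjusted p = 0.0568) and the fit without both libraries high in meningeal markers (adjusted p = 0.0659).

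**Figure D3:**
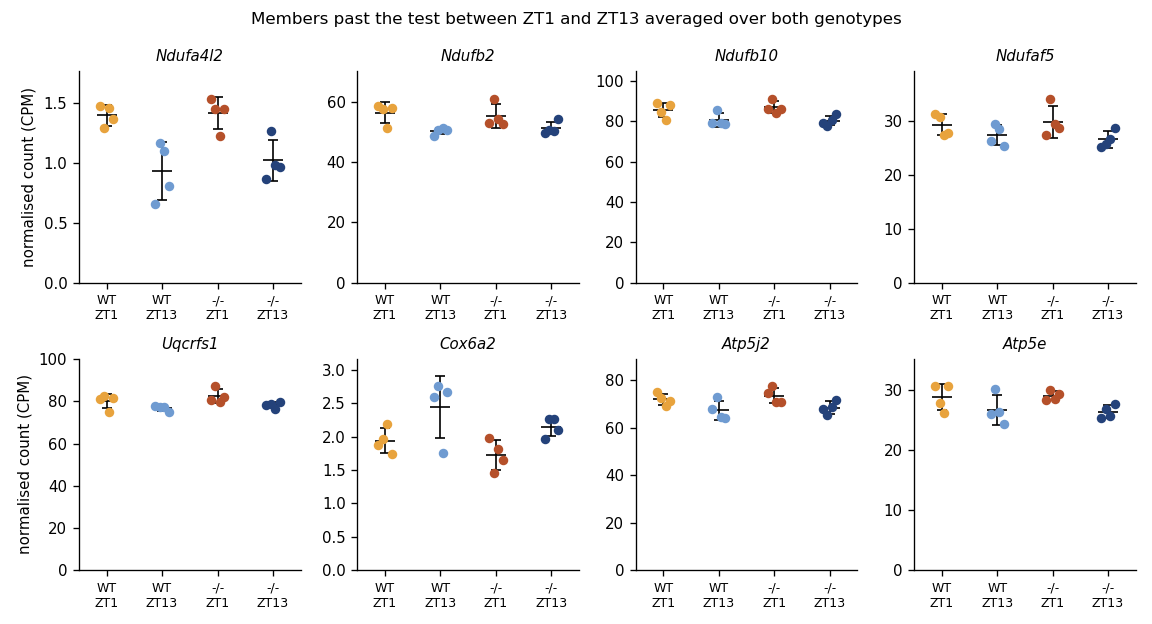
Normalised counts in CPM of the 8 members that passed the test between ZT13 and ZT1 averaged over both genotypes, with 4 libraries per group as points and the mean ± SD as bars. Cox6a2 is higher at ZT13 in both genotypes, and the other 7 genes are lower.

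The remaining 90 members did not pass, and their intervals were narrow. The 95% interval of the difference lay within ±0.2 on the log2 scale for 86 of the 98 members, against 57.8% of all genes tested, and its median half-width was 0.0669. The median log2 fold change of the members was -0.03, against -0.00 for all genes, and 82 of 98 members were on the negative side. Without ASIC1a-/- ZT1 replicate 2 the median was -0.02 with 25 members positive, and on the log2(TPM + 1) scale it was also -0.02 with 25 positive. Medians were -0.03 in complex I, -0.01 in complex II, -0.06 in complex III, -0.03 in complex IV and -0.04 in complex V. All 8 genes of complex III had negative values, and 1 of them passed. The members with the smallest p among those of complex II and cytochrome c were Sdhc (-0.04, adjusted p = 0.251) and Cycs (-0.05, adjusted p = 0.158).

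In WT mice alone, 2 members fell at ZT13 and none rose, whereas 13.3% of all genes passed, 7.51% higher and 5.76% lower. They were Ndufb2 (-0.16, SE 0.0496, adjusted p = 0.0377) and Ndufa4l2 (-0.58, SE 0.185, adjusted p = 0.0434). The call for Ndufb2 was lost when WT ZT1 replicate 1, 2 or 4 or any WT ZT13 library was left out. The call for Ndufa4l2 was lost without any 1 of the WT ZT1 libraries, WT ZT13 replicates 1 and 4, ASIC1a-/- ZT1 replicates 1 and 4, or ASIC1a-/- ZT13 replicate 3. It was also lost by DESeq2 (adjusted p = 0.0580), with no filter on low counts (0.0986), with only the WT libraries in the fit (0.0725) and under a replicate block (0.0553), and both calls were lost on the TPM scales. The median of the 98 members was -0.02 and 33 were positive. It was -0.00 with 46 positive without WT ZT1 replicate 1, -0.01 with 44 positive without WT ZT13 replicate 4, -0.01 with 38 positive without WT ZT1 replicate 4, -0.04 with 22 positive without WT ZT1 replicate 3 and -0.04 with 19 positive without WT ZT13 replicate 2. Outside the calls, the smallest p of each complex belonged to Sdhb (0.05), Uqcrfs1 (-0.06), the copper chaperone Cox11 (-0.19) and Atp5mpl (-0.13), a small proteolipid of ATP synthase. Ndufa4l2 was the 1 member whose WT groups did not overlap, where 18.3% of all genes did not, 9.63% higher and 8.68% lower.

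In ASIC1a-/- mice alone, no member passed, whereas 11.3% of all genes did, 6.72% higher and 4.62% lower. By edgeR 13 members had an unadjusted p under 0.05, of which 12 were lower and Cox6a2 was higher, against 4156 of all 15808 genes, and DESeq2 called 1 member, Ndufb10. Ndufb10 was closest in edgeR, at -0.11 (SE 0.0369, adjusted p = 0.0543). The median of the members was -0.06, and 89 of 98 were negative. Ndufb10, Ndufa8, Atp5e, Uqcrfs1 and Cox7a1 were lower at ZT13 with no overlap between groups, 5 of 98 members, where 15.7% of all genes did not overlap, 8.83% higher and 6.88% lower. The median rested partly on 1 library and on the scaling. Without ASIC1a-/- ZT1 replicate 2 it was -0.03, and 24 members were positive instead of 9. With scaling by library size only it was -0.04 with 17 positive. On the log2(TPM + 1) scale it was -0.02 with 27 positive, beside -0.02 with 28 positive in WT.

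The comparison of genotypes asked whether loss of ASIC1a changed these genes. No member passed at either time or in the average of both. Of all genes, 0.0127% passed at ZT1 (all of them lower), 0.101% at ZT13 (0.0822% higher and 0.019% lower) and 0.0633% in the average (0.0506% higher and 0.0127% lower). At an unadjusted p under 0.05, edgeR gave 2, 0 and 3 members, against 1107, 591 and 1074 of all 15808 genes, and DESeq2 and limma-voom called none in any of them. The 95% interval lay within ±0.2 on the log2 scale for 83 of 98 members at ZT1, 85 at ZT13 and 93 in the average. No member was without overlap at ZT13 or in the average, where 2.58% (1.29% in each direction) and 0.0316% (0.0127% higher and 0.019% lower) of all genes were.

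The members closest to the threshold were genes of low expression. Cox7a1 had 0.976, 1.01, 0.618 and 0.797 CPM in WT ZT1 and 1.12, 1.23, 1.08 and 1.14 CPM in ASIC1a-/- ZT1, so these groups did not overlap (0.43, SE 0.190, adjusted p = 0.680). At ZT13 it had 0.623 to 0.999 CPM in WT and 0.816 to 1.02 CPM in ASIC1a-/-, which overlapped. Cox7a1 and Sdhd were the 2 members with no overlap at ZT1, both higher, where 2.92% of all genes did not overlap, 1.42% higher and 1.51% lower. Sdhd differed by 0.04.

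Atp5g2 had the smallest p averaged over both times (-0.34, SE 0.138, adjusted p = 0.720). It had 1.56, 1.85, 2.44 and 2.31 CPM in WT ZT1 and 1.65, 1.62, 2.11 and 1.06 CPM in ASIC1a-/- ZT1. At ZT13 it had 2.00, 3.01, 2.44 and 2.5 CPM in WT and 2.26, 1.58, 1.93 and 2.08 CPM in ASIC1a-/-. The groups overlapped at both times. Atp5g2 lies on chromosome 15 at chr15:102662864-102672352, 2.96 Mb from Asic1 itself. The abundant genes for the same protein differed less, with Atp5g3 at 0.03 and Atp5g1 at 0.02 averaged over both times.

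At ZT1 the members leaned upward in ASIC1a-/-, and the lean depended on single mice. The median was 0.03 and 78 of 98 members were positive, but it was 0.00 with 54 positive without ASIC1a-/- ZT1 replicate 2, 0.01 with 64 positive without WT ZT1 replicate 3 and 0.01 with 58 positive on the log2(TPM + 1) scale. At ZT13 the median was -0.00 with 44 positive, and its sign changed with the scaling and with single libraries. The interaction of genotype and time, which tests whether the ZT difference depends on genotype, passed for no member and for 0.019% of all genes (all of them positive). No member reached an unadjusted p under 0.05 in edgeR, and DESeq2 and limma-voom called none. The smallest p belonged to the assembly factor Cox20 (-0.21, SE 0.114). Intervals were wider here, with a median half-width of 0.134.

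**Figure D4:**
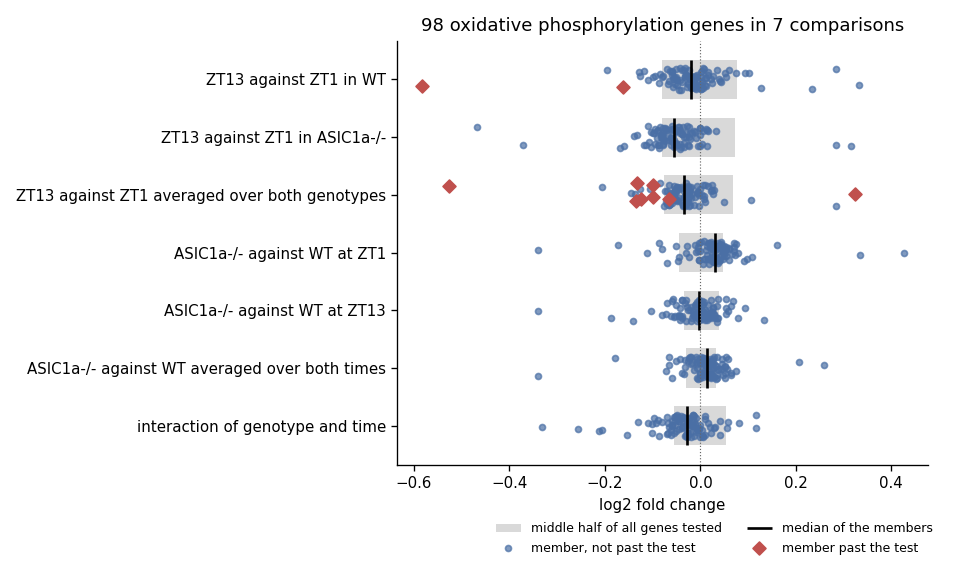
Log2 fold change of each of the 98 members in 7 comparisons, with members that passed the test as diamonds, the median of the members as a line and the range between the quartiles of all genes tested as a grey band. Members past the test appear only in 2 comparisons of ZT13 with ZT1, and the medians lie between -0.06 and 0.03.

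Summed over each complex, the ranges of mean ± SD overlapped between all 4 groups. Complex I summed to 2630 ± 82.5 CPM in WT ZT1, 2686 ± 102 in ASIC1a-/- ZT1, 2598 ± 84.0 in WT ZT13 and 2595 ± 58.1 in ASIC1a-/- ZT13 (SD, n = 4). Complex V summed to 3356 ± 91.2, 3423 ± 124, 3283 ± 73.8 and 3312 ± 86.7 CPM in the same order. The means of complex II lay closest together, at 841 ± 19.5, 850 ± 24.2, 841 ± 16.3 and 844 ± 21.8 CPM.

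Members moved together from library to library. For each library, the difference of each gene from its own mean over 16 libraries was taken on the log2 CPM scale. In ASIC1a-/- ZT1 replicate 2, 93 of 98 members lay above their own mean, by a median of 0.12. In WT ZT1 replicate 1 and WT ZT13 replicate 2 there were 80 and 81 members above. By contrast, 9 members were above in WT ZT1 replicate 3, 15 in ASIC1a-/- ZT13 replicate 3 and 16 in WT ZT13 replicate 4. Over all genes tested, 48.0 to 51.5% were above their mean in each library. The scaling of the libraries largely fixes this share in advance. The genes of different complexes shifted to the same side in the libraries furthest from 0. In ASIC1a-/- ZT1 replicate 2 the medians were 0.12 for complex I, 0.06 for complex II, 0.13 for complex III, 0.13 for complex IV and 0.12 for complex V.

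Other RNA classes moved in some of the same libraries. In ASIC1a-/- ZT1 replicate 2, mitochondrial ribosomal, cytosolic ribosomal and proteasome genes had medians of 0.08, 0.05 and 0.03. In WT ZT1 replicate 3 their medians were -0.04, -0.08 and -0.08, where that of the members was -0.04. In WT ZT13 replicate 4 they were -0.03, -0.03 and -0.00, where that of the members was -0.07. The 5 nuclear long non-coding RNAs, which stay in the nucleus, had medians of -0.29 in ASIC1a-/- ZT1 replicate 2 and -0.26 in ASIC1a-/- ZT13 replicate 4, where 71 members were above their mean. They had medians of 0.21 in WT ZT1 replicate 3 and 0.19 in ASIC1a-/- ZT13 replicate 3, where few members were. Other libraries went the other way. These RNAs were at 0.09 in WT ZT1 replicate 4 and 0.06 in ASIC1a-/- ZT1 replicate 1, with 64 and 58 members above. In ASIC1a-/- ZT13 replicate 1 they were at -0.06, with 28 members above. The 7 oligodendrocyte markers were at 0.28 in ASIC1a-/- ZT1 replicate 2, and their highest summed level in that group was 6710 CPM, against at most 5769 CPM in the other groups. Mitochondrially encoded subunits were at 0.15 in that library and at -0.19 in WT ZT13 replicate 4, where the members also lay high and low. They were also at 0.16 in ASIC1a-/- ZT1 replicate 4, 0.10 in WT ZT13 replicate 1 and -0.15 in ASIC1a-/- ZT13 replicate 2, where the median of the members was 0.01, -0.03 and -0.03. These points are single libraries that share depth, tissue piece and RNA preparation, and the part of each class in the shift was not tested.

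**Figure D5:**
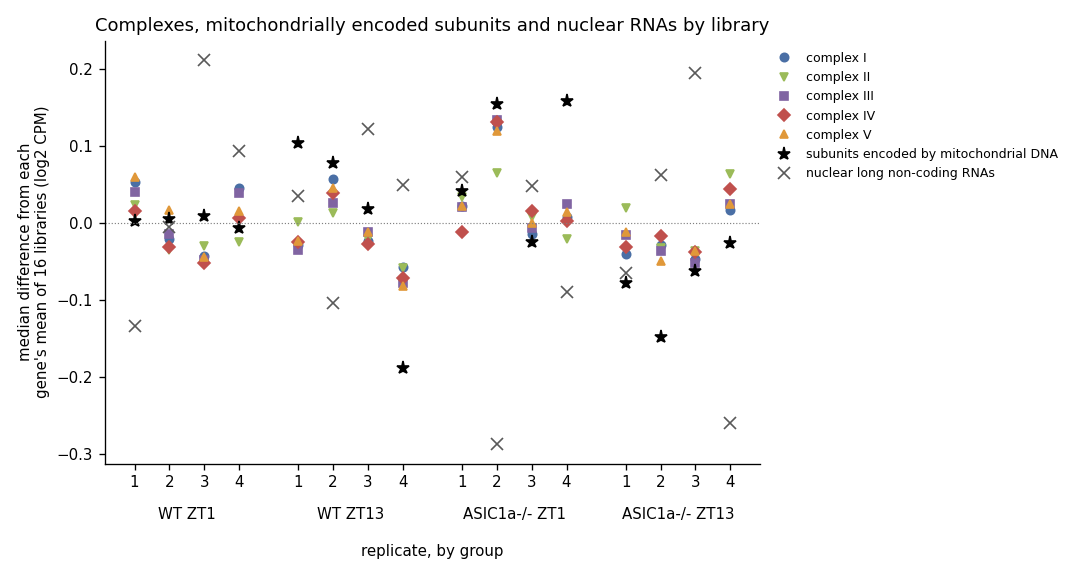
Median difference of the genes of each complex from their own means over 16 libraries (log2 CPM), by library and group, with mitochondrially encoded subunits as stars and nuclear long non-coding RNAs as crosses. Each complex lies highest in ASIC1a-/- ZT1 replicate 2, at 0.06 to 0.13. In some libraries complexes lie on opposite sides of 0, as in WT ZT1 replicate 4 with complex I at 0.05 and complex II at -0.03.

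Related pathways were counted in the same way between ZT13 and ZT1, averaged over both genotypes, where 26.4% of all genes passed (14.3% higher and 12.1% lower). Differences between these lists were not tested. Of the 13 subunits encoded by mitochondrial DNA, mt-Nd2 of complex I fell (-0.13, adjusted p = 0.0410) and the other 12 did not pass. In ASIC1a-/- alone, mt-Nd2, mt-Nd4 and mt-Cytb fell by 0.22, 0.14 and 0.13 on the log2 scale (edgeR, adjusted p from 0.0299 to 0.0442). In that comparison 11.3% of all genes passed, 6.72% higher and 4.62% lower. The median of the 13 subunits was furthest from 0 in ASIC1a-/- ZT1 replicates 2 and 4 (0.15 and 0.16) and ZT13 replicate 2 (-0.15). Values of these genes without those libraries are not given here. Of 41 assembly factors outside the name rule, 8 fell and none rose. Bcs1l, which inserts the Rieske protein into complex III, fell by 0.23 (adjusted p = 0.000209), and Coa4 and Coa5, factors for complex IV, fell by 0.29 and 0.06.

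Of 17 regulators of nuclear respiratory genes, 5 rose and 2 fell. Pprc1, a coactivator of nuclear respiratory factor 1, rose by 0.37, the zinc finger factor Yy1 by 0.25 and the deacetylase Sirt1 by 0.23 (adjusted p from 3.87e-07 to 0.000359). Of 18 genes of the tricarboxylic acid cycle and pyruvate dehydrogenase, Idh2, which makes mitochondrial NADPH, rose by 0.25 and none fell. Of 16 glycolytic genes 4 fell, among them Pfkl (-0.09), Eno1 (-0.08) and Pfkp (-0.06), and none rose. Of 11 mitochondrial carriers and porins none passed by edgeR and 2 had an unadjusted p under 0.05, and of 8 antioxidant enzymes the thioredoxin Txn2 fell (-0.10).

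Other large multi-subunit machines served as comparison. Of 78 mitochondrial ribosomal protein genes 1 rose and 9 fell, with a median of -0.02. Of 94 cytosolic ribosomal protein genes 3 rose and 2 fell, with a median of 0.00. Of 38 proteasome subunit genes 13 rose and none fell, with a median of 0.06. In the comparison of genotypes averaged over both times, no gene of these lists passed. At an unadjusted p under 0.05 there were 1, 6 and 0 genes of these 3 lists by edgeR.

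Promoters were read for the members because many shifted together, although other gene lists shifted in some of the same libraries. Nuclear respiratory factor 1 (NRF1), ETS factors such as GABP, and YY1 are known to bind promoters of respiratory genes. RefSeq (GRCm38.p6) gave a window of 250 bases before to 50 bases after the start for 81 of the 98 members. A set of 6 motifs was searched on both strands: that of NRF1 (its GC-rich palindrome), CCGGAAG (ETS), AAGATGGCG (YY1), TGACGTCA (cyclic AMP response element), CACGTG (E-box) and GGGCGG (GC box). Each motif was counted on its own, also where a match overlapped that of another. The NRF1 motif was in 18 of 81 windows (22.2%), against 4.78% of 27025 windows of all genes. The ETS motif was in 25.9% against 9.12%, the YY1 motif in 9.88% against 1.49%, the cyclic AMP element in 6.17% against 1.88%, the GC box in 49.4% against 35.9% and the E-box in 7.41% against 7.24%. The member windows had a median GC content of 59%, against 52.7%. Of the 81 members with a window, 40 held at least 1 NRF1, ETS or YY1 match, and the share over all windows was not counted. The 27025 windows are not limited to the genes tested here.

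Below are the 200 bases before the start of 4 members that fell at ZT13 and of 2 for comparison, written 5′ to 3′ on the strand of the gene, with motif matches in capitals. Ndufb2 and Uqcrfs1 are shown because each has the cyclic AMP element close to its start (first base 14 and 29 bases before it), Atp5e for its ETS match and 2 GC boxes, and Ndufb10, whose change passed under every alternative tried, for having no match in this stretch. Cox6a1, which did not pass in any comparison, has 2 NRF1 matches, 1 ETS match and 2 GC boxes, and Cycs has the cyclic AMP element 169 bases before its start.
Ndufb2 (chr6:39592365-39592564, plus strand): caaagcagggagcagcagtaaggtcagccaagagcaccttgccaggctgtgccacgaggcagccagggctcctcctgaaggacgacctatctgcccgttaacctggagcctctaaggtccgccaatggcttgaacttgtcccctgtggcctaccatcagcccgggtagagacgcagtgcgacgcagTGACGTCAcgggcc
Uqcrfs1 (chr13:30545317-30545516, minus strand): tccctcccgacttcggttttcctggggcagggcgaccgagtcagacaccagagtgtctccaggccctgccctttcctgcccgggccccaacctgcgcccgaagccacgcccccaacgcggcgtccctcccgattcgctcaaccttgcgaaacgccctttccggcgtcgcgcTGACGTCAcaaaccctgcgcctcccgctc
Atp5e (chr2:174464102-174464301, minus strand): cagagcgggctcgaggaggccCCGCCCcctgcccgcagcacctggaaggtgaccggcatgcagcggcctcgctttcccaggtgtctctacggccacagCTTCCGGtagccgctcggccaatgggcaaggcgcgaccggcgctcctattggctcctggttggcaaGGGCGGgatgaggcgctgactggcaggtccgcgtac
Ndufb10 (chr17:24724424-24724623, minus strand): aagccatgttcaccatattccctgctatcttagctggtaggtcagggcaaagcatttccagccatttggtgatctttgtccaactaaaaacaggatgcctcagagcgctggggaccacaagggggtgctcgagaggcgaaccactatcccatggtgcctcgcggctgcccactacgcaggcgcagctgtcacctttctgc
Cox6a1 (chr5:115348959-115349158, minus strand): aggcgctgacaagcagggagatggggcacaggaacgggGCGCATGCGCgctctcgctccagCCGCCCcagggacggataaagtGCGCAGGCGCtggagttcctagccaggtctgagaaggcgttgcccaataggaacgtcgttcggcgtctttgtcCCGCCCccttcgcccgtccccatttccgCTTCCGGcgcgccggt
Cycs (chr6:50566570-50566769, minus strand): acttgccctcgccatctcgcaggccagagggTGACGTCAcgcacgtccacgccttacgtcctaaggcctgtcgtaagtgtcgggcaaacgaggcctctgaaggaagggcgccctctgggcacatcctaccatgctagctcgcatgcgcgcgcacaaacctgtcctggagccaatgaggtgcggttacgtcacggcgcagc

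A match is a run of letters and not a measured binding site. Among the 8 members that passed, Ndufa4l2 and Cox6a2 were not matched to a window. The cyclic AMP element was found in Cycs, Ndufa10, Ndufa11, Ndufb2 and Uqcrfs1, of which Ndufb2 and Uqcrfs1 fell and Cycs (-0.05), Ndufa10 (-0.05) and Ndufa11 (0.01) did not pass. The NRF1 motif was found in 18 members, of which Ndufaf5 passed the test.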

How the data were processed

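RNA-seq of the hypothalamus was analysed in 16 libraries, 4 replicates of each group. The labels number the replicates, and the study describes them as separate animals, so p-values measure the spread between mice. The methods and the labels name different RNA extraction and library kits, and the strand setting is not given in the sources used here. The authors trimmed reads with cutadapt 1.8, aligned them with STAR 2.5.3a and estimated gene expression with RSEM 1.2.31. The deposited tables hold expected counts, in which RSEM splits reads shared between loci, and TPM values, which the authors' RSEM run scaled for effective length. The submitters' processing notes name GRCm38 and mm9. Gene coordinates are those of GENCODE M21 on GRCm38.

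Expected counts were rounded and scaled by TMM. Genes over 1 CPM in at least 1 library (15808 of 55401) were tested in 1 fit of 4 groups with edgeR 4.0.16 (quasi-likelihood F test, R 4.3.3), with Benjamini-Hochberg adjustment over all genes and calls at 0.05. Alternatives used DESeq2 1.42.0, limma 3.58.1 (limma-voom, and log2(TPM + 1) or log2(TPM + 0.1)), other scalings, no filter, the replicate number as a block, and single libraries left out. The test was tried on simulated data. The log2 CPM values behind the differences of single libraries use a prior count of 2. Replicate pairs within groups differed by more than sampling noise.

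Named genes were up to 3 called members with the smallest p per comparison and complex (otherwise the 1 with the smallest p), the alternative forms, the Sdh genes and Cycs, the highest and lowest member of each complex, the 3 genes with the smallest p of each pathway list and the members nearest the filter. The members and lists were chosen with earlier results of these data known. A result on 1 member is not reported here.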

Additional observations from a re-analysis of the deposited data

Results flagged for a closer look

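In each group of 4 libraries, the highest or lowest library was compared with its neighbour by Dixon's test at the 95% level for 36 genes and the summed levels of the complexes. Of 164 checks 11 exceeded the critical value, where chance gives about 1 in 20. ASIC1a-/- ZT13 replicate 4 stood high for Atp5l, a membrane subunit of ATP synthase (58.53 CPM), for Cox20, a chaperone of complex IV (8.587 CPM), and for the sum of complex I (2681 CPM). WT ZT13 replicate 2 stood high for Atp5mpl (37.38 CPM) and Ndufb10 (85.69 CPM).

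Cox20 was low in ASIC1a-/- ZT1 replicate 1 (7.154 CPM). Cox6a2 was low in WT ZT13 replicate 3 (1.756 CPM), Ndufb2 in WT ZT1 replicate 3 (51.12 CPM) and Uqcr11, a small subunit of complex III, in ASIC1a-/- ZT13 replicate 3 (37.14 CPM). Cox8a was high in WT ZT1 replicate 4 (124.9 CPM), and the sum of complex II was high in WT ZT1 replicate 1 (870.6 CPM).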

How the results depend on the processing

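Between ZT13 and ZT1, the number of members that passed moved by over 1.5 times, or from 0, in 16 of 27 alternatives in WT, 5 of 27 in ASIC1a-/- and 10 of 26 averaged over genotypes. Genotype and interaction counts were 0 under each alternative run, which says little of stability because they start at 0. Averaged over genotypes, 8 members passed between ZT13 and ZT1, against 3 on log2(TPM + 1), 3 on log2(TPM + 0.1), 1 on log2(TPM + 1) with no filter, and 4 to 12 with 1 library left out. In WT, 2 members passed, against 1 with no low-count filter, 1 by DESeq2, 1 on log2(TPM + 1), 1 on log2(TPM + 0.1), 0 on log2(TPM + 1) with no filter, 1 with only the libraries compared and 0 to 3 with 1 library left out. In ASIC1a-/-, 0 passed, against 1 by DESeq2 and 0 to 1 with 1 library left out. The cause was not tested.

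Same-numbered replicates deviated together in 4 of 24 pairs (correlation over 0.1; range -0.316 to 0.217), so the numbers were not taken as pairs. With the replicate block 8 members passed averaged over genotypes, 1 in WT and 0 in ASIC1a-/-. Averaged over genotypes Cox6a2 lost its call (0.32, adjusted p = 0.0513, edgeR) and Atp5mpl gained one, and in WT Ndufa4l2 lost its call (adjusted p = 0.0553).

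Values near 0 changed sign in 7 cases. Cycs between genotypes at ZT1 was -0.00878 on log2(TPM + 1) with and without the filter and -0.00891 on log2(TPM + 0.1). With 1 library left out, Sdhb between genotypes at ZT13 ranged from -0.0102 to 0.0462, and the interaction of Cycs from -0.0101 to 0.0426. The 8 calls averaged over genotypes were lost in 0 (Ndufb10), 1 (Atp5j2), 3 (Ndufb2), 3 (Ndufa4l2), 12 (Cox6a2), 13 (Atp5e), 13 (Ndufaf5) and 18 (Uqcrfs1) of 26 alternatives. Ndufa4l2 rests on 23 to 55 reads per library, and the part of depth was not tested.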
